A study of Caenorhabditis elegans with 2 samples.

Results

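The ceh genes encode homeodomain proteins, transcription factors that bind DNA through a homeodomain and, in the worm, pattern the body axis and set the identity of neurons and other cells. PHA-4 is the forkhead factor of the FoxA type that commits embryonic cells to the pharynx, the muscular feeding organ. Several homeobox genes act in pharyngeal muscles or neurons, and others act far from the pharynx. The genes described here are the protein-coding genes whose symbol is ceh- followed by a number, except ceh-22 and ceh-34. There were 61 of them among 19985 protein-coding genes in the Ensembl annotation of the WBcel235 assembly, which is ce11. Peaks were assigned by their summits, and a summit belonged to a gene if it fell within the gene body or the promoter window, which reached from 1000 bp before to 500 bp after each transcript start.

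Binding was measured by chromatin immunoprecipitation and sequencing in whole late embryos of mixed sex. The animals were of strain OP37, genotype unc-119(ed3) III; wgIs37, in which the wgIs37 insertion supplies eGFP-tagged PHA-4. The 2 libraries are biological replicates of this 1 group, from separate biosamples. No other genotype, stage or treatment was compared. Because chromatin came from whole animals, binding in few cells and weak binding in many cannot be told apart. The relaxed ce11 lists, which hold peaks together with background, had 5607 peaks in replicate 1, 1729 in replicate 2 and 7768 when both alignments were pooled. The q-values that came with the peaks reached 0.05 or less for 5248 peaks of replicate 1 and 1330 of the pooled list. In replicate 2 no peak did, and its smallest q was 0.351. Library depth is unknown here.

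In each list the all-gene share with a PHA-4 peak lay inside the interval of the ceh share, and no ceh peak recurred at the same place in both replicates. The strongest ceh peaks were those of ceh-38 and ceh-2, both in replicate 1 and the pooled list and neither in replicate 2. In replicate 1, 11 of the 61 genes had a peak (18.03%, 95% exact interval 9.36 to 29.98), against 19.8% of all protein-coding genes. In replicate 2 it was 3 of 61 (4.92%, 1.03 to 13.7), against 7.08% of all protein-coding genes. In the pooled list it was 18 of 61 (29.5%, 18.5 to 42.6), against 25.6%. When each summit was given instead to the nearest start, 16 ceh genes had a replicate 1 peak (26.2%, 15.8 to 39.1), against 20.8% of all genes, and 21 had a pooled peak (34.4%, 22.7 to 47.7), against 27.2%. In replicate 2 it was 9 genes (14.8%, 6.98 to 26.2), against 7.76%, which is the largest departure from the all-gene share in that replicate among the assignments tried. These all-gene shares also lay inside the intervals. The only ceh gene with a peak in each replicate was ceh-21 (1.64%, 0.0415 to 8.80), against 2.28% of all genes, and its peaks lay 2819 bp apart. None of the 9 peaks of the authors' final list lay in a ceh window. In all, 23 genes had a peak in at least 1 of the 3 relaxed lists and 38 had none. The matching share of all protein-coding genes is not given here, so this count has no background.

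The summits that the counts turn on are printed here as reference sequence, to show the DNA under the peaks. Each is the 201 bp centred on a summit, taken from the RefSeq copy of the WBcel235 assembly on its plus strand. They are both summits of ceh-21, the gene with a peak in each replicate, the next replicate 1 summits in order of signal (those of ceh-2 and ceh-45 are not shown), and the strongest replicate 2 summit, that of ceh-23. Capitals mark matches, on either strand, to TRTTKRY, the consensus of PHA-4, where R is A or G, K is G or T, and Y is C or T.
ceh-38 (replicate 1, chrII:6951475-6951675): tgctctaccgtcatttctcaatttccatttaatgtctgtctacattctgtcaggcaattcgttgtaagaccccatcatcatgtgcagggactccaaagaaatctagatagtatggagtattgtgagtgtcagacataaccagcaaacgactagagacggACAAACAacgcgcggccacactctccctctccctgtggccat
ceh-88 (replicate 1, chrIV:17329043-17329243): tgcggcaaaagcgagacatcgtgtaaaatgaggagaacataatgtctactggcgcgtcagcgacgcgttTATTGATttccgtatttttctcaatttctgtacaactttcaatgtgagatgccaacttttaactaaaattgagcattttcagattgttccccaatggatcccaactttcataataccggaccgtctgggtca
ceh-93 (replicate 1, chrX:388775-388975): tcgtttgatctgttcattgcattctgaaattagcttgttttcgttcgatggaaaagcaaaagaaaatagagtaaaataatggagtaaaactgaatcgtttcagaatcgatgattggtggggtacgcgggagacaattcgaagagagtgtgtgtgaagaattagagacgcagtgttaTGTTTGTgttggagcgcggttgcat
ceh-86 (replicate 1, chrII:2431867-2432067): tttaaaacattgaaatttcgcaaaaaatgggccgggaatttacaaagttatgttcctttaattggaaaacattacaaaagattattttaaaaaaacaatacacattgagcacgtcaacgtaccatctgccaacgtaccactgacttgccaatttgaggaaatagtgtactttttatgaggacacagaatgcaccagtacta
ceh-21 (replicate 1, chrX:1853604-1853804): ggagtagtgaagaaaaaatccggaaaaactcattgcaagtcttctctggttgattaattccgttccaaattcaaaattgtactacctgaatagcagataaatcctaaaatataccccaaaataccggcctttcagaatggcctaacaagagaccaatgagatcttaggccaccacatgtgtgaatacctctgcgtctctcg
ceh-21 (replicate 2, chrX:1850785-1850985): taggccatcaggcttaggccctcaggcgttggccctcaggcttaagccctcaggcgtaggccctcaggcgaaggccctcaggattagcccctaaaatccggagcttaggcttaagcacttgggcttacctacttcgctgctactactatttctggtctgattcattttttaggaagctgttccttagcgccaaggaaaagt
ceh-23 (replicate 2, chrIII:7838687-7838887): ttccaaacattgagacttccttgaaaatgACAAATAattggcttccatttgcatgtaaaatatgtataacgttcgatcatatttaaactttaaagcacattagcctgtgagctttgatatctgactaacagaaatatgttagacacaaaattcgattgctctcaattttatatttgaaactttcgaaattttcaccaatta

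In these windows the ceh-38, ceh-88, ceh-93 and ceh-23 summits held 1 match each, and the ceh-86 summit and both ceh-21 summits held none. The ceh-88 match, TATTGAT, was centred 28 bp from the summit. The matches at ceh-38 and ceh-93 both read TGTTTGT in the consensus direction and were centred 62 and 79 bp from the summit. The ceh-23 match reads TATTTGT, centred 68 bp away. Over all ceh peaks of replicate 1, 8 of 12 summits (66.7%, 95% exact interval 34.9 to 90.1) had a match within 100 bp, as did 12 of the 24 flanking windows centred 500 bp to each side (50%). The corresponding shares over all 5594 nuclear peaks of that list were 57.4% at summits and 47.04% in flanks. Of non-overlapping nuclear windows of 201 bp, 45.1% held a match, so finding the pattern in a window is common. Within 50 bp of the summit the ceh share was 25%. A narrower window cannot hold more matches, and the shares of all peaks, flanks and genome windows are given only for 201 bp. The 25% is therefore not comparable with them. With 12 peaks, the interval of the ceh share covers the summit and flank shares of the whole list. A match is a description of the sequence and does not show that PHA-4 bound there.

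**Figure D1:**
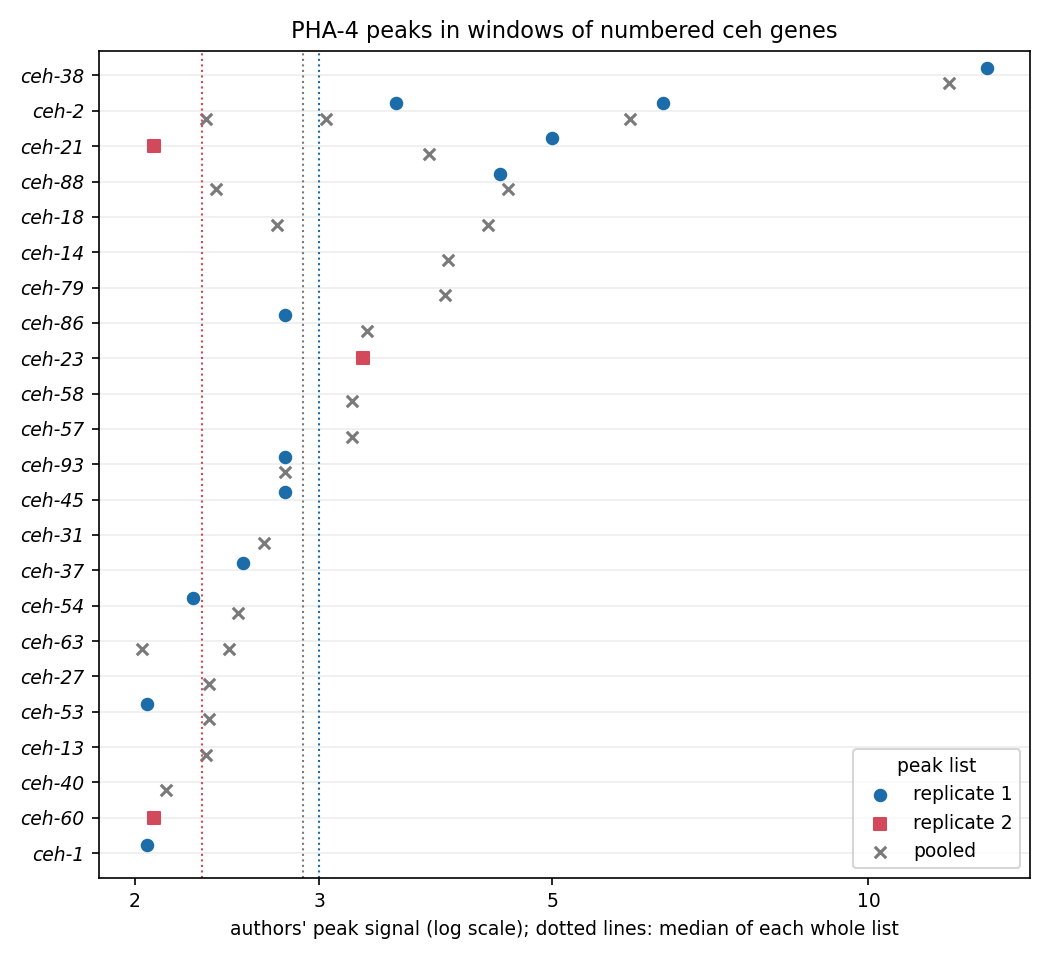
Signal of every peak in the window of a numbered ceh gene, as given by the authors, on a log axis, with 1 row per gene and the marker showing the list. The peak of ceh-38 stands highest, at 12.98 in replicate 1 and 11.9 in the pooled list, and many others lie near or below the dotted medians of the whole lists (2.99, 2.32 and 2.90 for replicate 1, replicate 2 and pooled).

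The strongest ceh peak lay at ceh-38, a ONECUT-type gene of the CUT class, whose worm members act together in maintaining genes that all neurons express. In replicate 1 it was chrII:6951403-6951746, with a signal of 12.98, rank 81 of 5607 and a q of 0.00336. The pooled peak at the same summit had a signal of 11.9, rank 102 and a q of 0.0148. Replicate 2 had no peak in the ceh-38 window. Its nearest peak lay 4212 bp upstream of a ceh-38 start, with rank 89, a signal of 3.46 and a q of 0.401. The shared summit of replicate 1 and the pooled list lay 44 bp upstream of an annotated start and in a ceh-38 exon outside the coding sequence, since the gene has 24 transcripts with 11 different starts. It also fell in the promoter window of malt-1, which lies on the other strand and is transcribed away from ceh-38. The peak alone does not assign binding to either gene.

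The other CUT genes had weaker peaks or none. Of the 6 CUT genes found, ceh-21 and ceh-38 had a peak in replicate 1 and in the pooled list (33.3% in each). In replicate 2 ceh-21 had one (16.7%), and ceh-39, ceh-41, ceh-48 and ceh-49 had none in any list. For all genes the shares were 19.8% in replicate 1, 25.6% in the pooled list and 7.08% in replicate 2. The genes ceh-39, ceh-21 and ceh-41 lie in a cluster on chromosome X, in the same orientation, with T26C11.9 between ceh-39 and ceh-21. The gene ceh-39 is an X-signal element in worm sex determination. The ceh-21 peak of replicate 1 (chrX:1853532-1853875) had a signal of 4.997, rank 1118 and a q of 0.00492. Its pooled counterpart had a signal of 3.82, rank 2161 and a q of 0.145. This summit lay 968 bp upstream of ceh-21 and inside a non-coding part of an exon of T26C11.9, whose nearest start is 120 bp away. It lay 170 bp beyond the window of ceh-39. The replicate 2 peak (chrX:1850590-1851179) was in a ceh-21 intron, 1851 bp downstream of the start, with a signal of 2.09, rank 1438 and a q of 0.791. The ceh-21 count in each replicate thus rests on separate places, and the replicate 1 summit is nearer to another gene. Of the 455 protein-coding genes with a peak in each replicate, 79 had replicate peaks that overlapped.

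**Figure D2:**
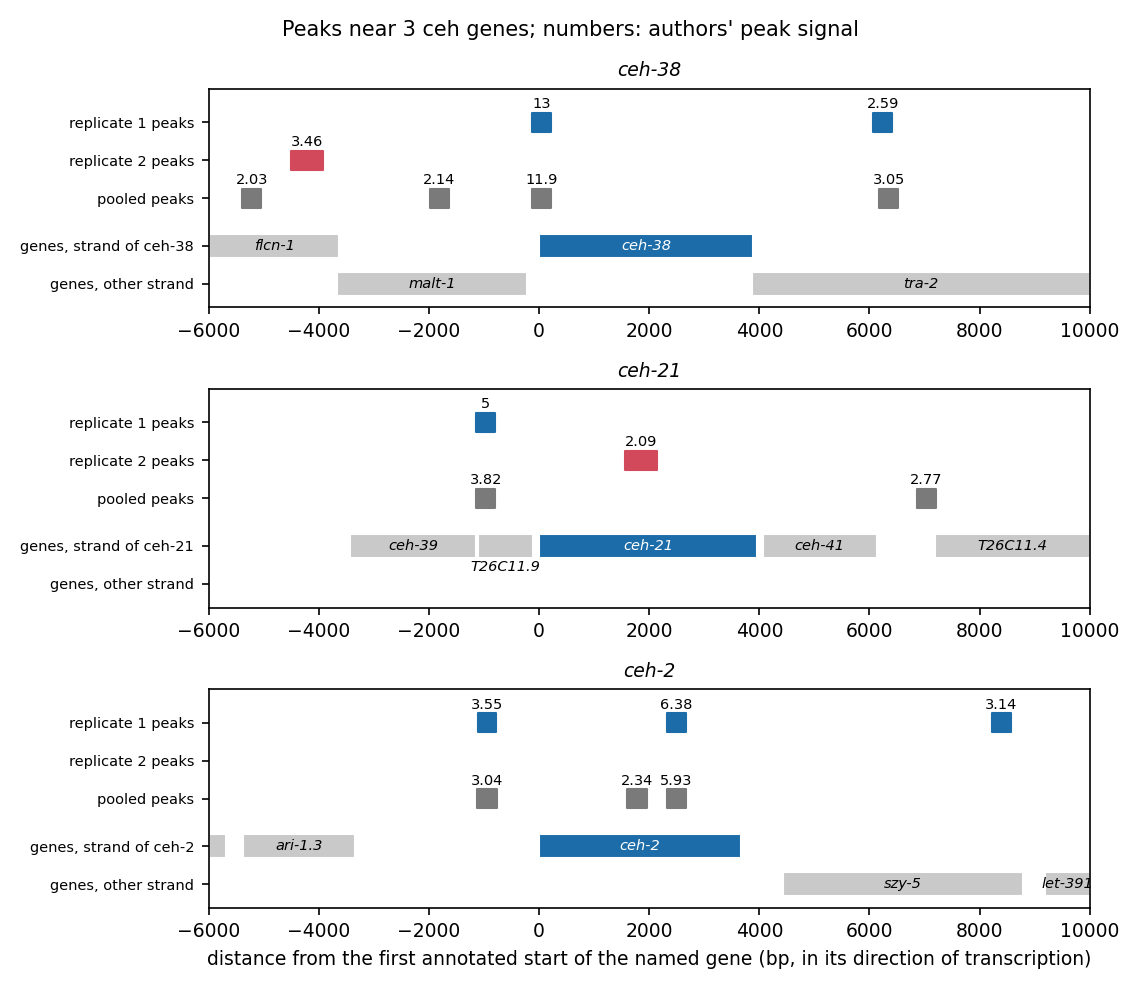
Peaks of each list around ceh-38, ceh-21 and ceh-2, drawn to scale along the distance in bp from the first annotated start, with protein-coding genes below as bars and the authors' signal above each peak. Each replicate 1 peak that counted for ceh-38, ceh-21 or ceh-2 has a pooled peak at the same summit. Beyond ceh-38, a pooled peak (signal 3.05) overlaps a replicate 1 peak (signal 2.59) with a different summit. Some other pooled peaks overlap no replicate 1 peak, and the replicate 2 peaks near ceh-38 and in ceh-21 lie apart.

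Of the 5 numbered ceh genes listed here for the pharynx, ceh-2 alone carried peaks. The hand-drawn list of genes expressed or acting in pharyngeal cells held ceh-2, ceh-19, ceh-24, ceh-28 and ceh-51. The gene ceh-2 is an Ems-type homeobox gene of the pharynx, where it is needed for the function of the M3 motor neurons. Its stronger replicate 1 peak, chrI:6047784-6048127, lay in an intron 2495 bp downstream of the start, with a signal of 6.38, rank 645 and a q of 0.00388. The other, chrI:6051225-6051568, lay 946 bp upstream, with a signal of 3.55, rank 2032 and a q of 0.00417. In the pooled list the same summits had signals of 5.93 (rank 834, q 0.0162) and 3.04 (rank 3437, q 0.354), and a further intron summit 1779 bp downstream had 2.34 (rank 5848). Replicate 2 had no peak within 9419 bp of the ceh-2 window. Both replicate 1 summits held 1 consensus match within 100 bp.

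The other 4 pharyngeal genes had no summit in any list. These are ceh-19, which acts in the MC motor neurons, ceh-24, an NK2-type gene of pharyngeal muscle, ceh-28, which acts in the M4 neuron, and ceh-51, which acts in the mesodermal MS lineage. Replicate 1 summits within 5000 bp of their windows were found 3565 and 4873 bp from that of ceh-24 (signals 3.38 and 2.27) and 3564 bp from that of ceh-51 (signal 2.27). The ceh-24 pair lay closer to a start of swan-1. In replicate 2, a summit lay 708 bp beyond ceh-24 (signal 2.24), nearer to F55B12.2, and a pair lay 3583 and 4554 bp from the ceh-19 window, nearer to frpr-10. The pharynx list thus had 1 of 5 genes with a peak in replicate 1 (20%), 0 of 5 in replicate 2 and 1 of 5 in the pooled list. The all-gene shares were 19.8%, 7.08% and 25.6%, and counts from 5 genes cannot be told apart from them. The pharyngeal NK2-type gene ceh-22, which the rule leaves out, had 3 peaks in replicate 1, with signals of 10.8, 10.4 and 7.70. It had 1 in replicate 2, with a signal of 2.41 and a q of 0.566, which overlapped none of the 3. The sine oculis-type gene ceh-34 had none in any list.

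The list of NK-like and related genes held 16, which include most of the pharyngeal ones. Of these, 2 had a peak in replicate 1 (12.5%, against 19.8% of all genes), 1 in replicate 2 (6.25%, against 7.08%) and 3 in the pooled list (18.75%, against 25.6%). Besides ceh-2, the replicate 1 gene was ceh-1, whose summit at chrX:4654901-4655244 lay 916 bp upstream with a signal of 2.06, rank 5468 and a q of 0.0549. It had no pooled peak. The gene ceh-23, which is expressed in the AIY interneurons, held the strongest replicate 2 peak of the family. This peak, chrIII:7838492-7839081, lay 805 bp upstream with a signal of 3.297, rank 121 and a q of 0.378, and neither replicate 1 nor the pooled list had a peak in that window. The 2 remaining pooled peaks were weak. That of the NK2-type gene ceh-27 lay in its intron (signal 2.36, rank 5679), and that of the BarH-type gene ceh-31 lay 482 bp downstream of its start (signal 2.65, rank 4537). The ceh-31 summit held 3 consensus matches within 100 bp, the most of any ceh peak.

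Of the 6 numbered ceh genes listed here as paired-like, a list that may not be complete, 2 had a replicate 1 peak. None of the 6 had a peak in replicate 2 or the pooled list. The all-gene shares were 19.8% in replicate 1, 7.08% in replicate 2 and 25.6% in the pooled list. The Goosecoid-type gene ceh-45 had its peak, chrI:1128105-1128448, 47 bp upstream of a start, with a signal of 2.78, rank 3267 and a q of 0.00597. The Otx-type gene ceh-37, which acts in the AWB olfactory neurons, had its peak in an intron (chrX:14203145-14203488, signal 2.54, rank 4069, q 0.00995). That summit was 3586 bp from the nearest of its 4 starts, the farthest of any ceh peak in the replicates. The other 4, ceh-8, ceh-10, ceh-17 and ceh-36, had no peak.

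None of the 9 numbered ceh genes of the POU, PBC, sine oculis, LIM and Hox types had a replicate 1 peak, where 19.8% of all genes did. With so few genes, a count of 0 cannot be told apart from that share. Of the 9, the PBC-class gene ceh-60, which regulates vitellogenin genes in the intestine, had an intron peak in replicate 2 (chrX:6527501-6528090, signal 2.09, rank 1362, q 0.853). In the pooled list alone, the POU gene ceh-18, which acts in the gonadal sheath, had 2 intron peaks (signals 4.35 and 2.73). The LIM gene ceh-14 had 1 pooled peak 419 bp upstream (signal 3.98, rank 1949). The Hox gene ceh-13, the labial orthologue, had 1 at 832 bp upstream (2.34, rank 5867). The PBC gene ceh-40 had 1 at 29 bp upstream (2.14, rank 6698), in a window it shares with F17A2.13. These pooled peaks had q-values from 0.0823 at ceh-18 to 0.944 at ceh-40. The sine oculis-type genes ceh-32 and ceh-33, the POU gene ceh-6 and the PBC gene ceh-20 had no peak in any list.

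The remaining 24 genes were assigned to no class here. Of these, 5 had a replicate 1 peak (20.8%, against 19.8% of all genes), none had a replicate 2 peak (against 7.08%) and 9 had a pooled peak (37.5%, against 25.6%). The strongest was at ceh-88 (chrIV:17328971-17329314), 45 bp upstream of the start, with a signal of 4.46, rank 1374 and a q of 0.00546 in replicate 1. At the same summit the pooled peak had a signal of 4.53 and a q of 0.0649. The ceh-93 peak (chrX:388703-389046) lay 78 bp upstream with a signal of 2.78 in each of these lists. It had rank 3244 and a q of 0.00609 in replicate 1, and rank 4139 and a q of 0.473 in the pooled list. The ceh-86 peak (chrII:2431795-2432138) was in an intron, 105 bp downstream of a start, with a signal of 2.78, rank 3417 and a q of 0.00571. At ceh-54 the peak (chrX:6194852-6195195) lay 783 bp upstream with a signal of 2.27, rank 4724 and a q of 0.0235, and at ceh-53 (chrIV:3497930-3498273) it lay 107 bp upstream with 2.06, rank 5345 and a q of 0.0556. The last 2 are among the weakest peaks of the list. Pooled peaks that overlap those of ceh-86, ceh-54 and ceh-53 had q-values of 0.256, 0.599 and 0.699. Genes of this set with a pooled peak alone were ceh-57, ceh-58, ceh-63 and ceh-79. The neighbours ceh-57 and ceh-58 share 1 summit (signal 3.22, rank 3087), which lies in a ceh-58 coding exon and 999 bp upstream of ceh-57. The intron peak of ceh-79 had a signal of 3.95 and rank 1976, and the peaks of ceh-63 had signals of 2.46 and 2.03.

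**Figure D3:**
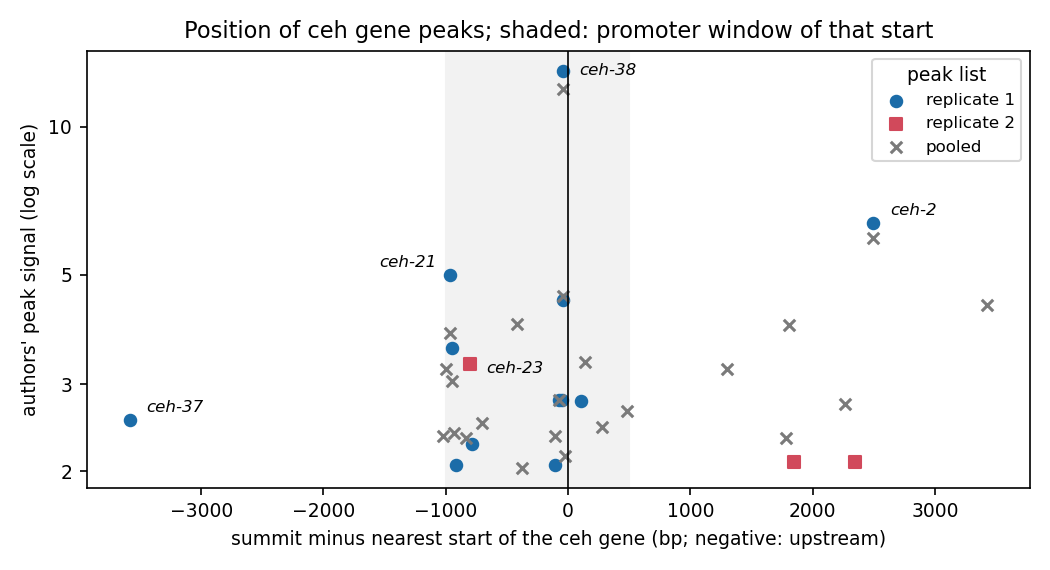
Distance in bp of each ceh peak summit from the nearest start of its gene, negative upstream, against the authors' signal on a log axis, with the promoter window of that start shaded. Most replicate 1 summits lie inside the shaded window, and those of ceh-2 (2495 bp) and ceh-37 lie outside it. The summit shared by ceh-57 and ceh-58 is drawn for each gene.

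By place, 7 of the 12 replicate 1 summits lay between genes (58.3%), 3 in introns (25%) and 2 in exons outside the coding sequence (16.7%). Of the 4216 replicate 1 summits in any protein-coding window, 34.7% lay between genes, 36.5% in introns and 8.14% in such exons. None of the 12 lay in a coding exon, against 20.7% of the 4216. Taking 3 counts as the upper limit of a count of 0, in place of an exact interval, allows a share of up to 25%. Of the 12, 10 were on the upstream side of the nearest start of their ceh gene (83.3%, 95% exact interval 51.6 to 97.9), against 54.7% of all 5024 pairs of a gene and a summit in its window. The ceh summits on the upstream side include those inside ceh-37, ceh-38 and T26C11.9. At ceh-38, ceh-88, ceh-45, ceh-93, ceh-86 and ceh-53 the summit lay 44 to 107 bp from the start. Within 110 bp, a limit set after these distances were seen, lay 6 of 12 ceh summits (50%, 21.1 to 78.9) and 13.99% of all pairs. Of the pooled ceh pairs it was 5 of 23 (21.7%, 7.46 to 43.7), against 12.7% of all pairs, and in replicate 2 it was 0 of 3, against 7.398%. Of the 12 summits, those at ceh-38 and ceh-21 also lay in the window of another protein-coding gene. The matching share over all summits is not given here. In replicate 2, 2 of the 3 summits were in introns and 1 was intergenic. The median signal of the 12 replicate 1 peaks was 2.78, against 2.99 for all summits of that list in protein-coding windows. Their ranks ran from 81 to 5468.

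With the promoter window alone, 10 ceh genes had a replicate 1 peak (16.4%, 8.15 to 28.1, against 14.3% of all genes), 1 had a replicate 2 peak (1.64%, against 3.11%) and 14 had a pooled peak (22.95%, against 17.8%). With the gene body alone, 4 had a replicate 1 peak (6.56%, 1.82 to 15.9, against 10.7%), 2 a replicate 2 peak (3.28%, against 5.41%) and 9 a pooled peak (14.8%, against 15.5%). Counting any overlap of a peak with the window gave 12 in replicate 1 (19.7%, against 21.4%), 5 in replicate 2 (8.20%, against 7.95%) and 19 in the pooled list (31.1%, against 27.6%). Restricted to peaks with a q of 0.05 or less, 9 had a replicate 1 peak (14.8%, 6.98 to 26.2, against 18.7%), and ceh-1 and ceh-53 were lost. In the pooled list ceh-2 and ceh-38 were the 2 that passed (3.28%, 0.3996 to 11.3, against 5.47%). Among the strongest 1000 peaks, the same 2 genes had a peak in replicate 1 (3.28%, against 4.13%) and in the pooled list (against 4.2%), and ceh-23 had one in replicate 2 (1.64%, against 4.09%). Each of these background shares lay inside the interval of the ceh share.

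**Figure D4:**
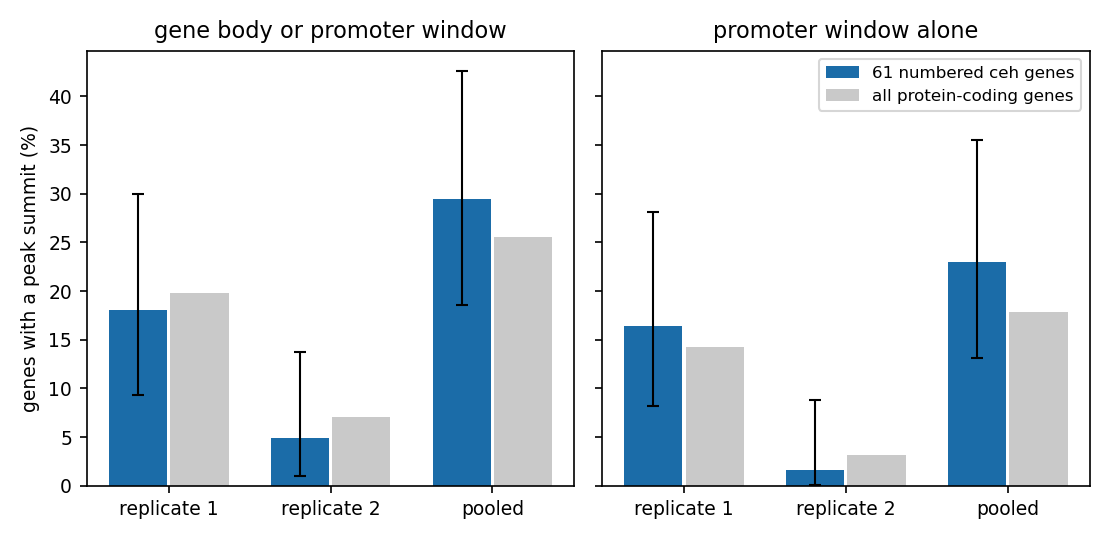
Percent of genes with a peak summit in each list, for the 61 ceh genes (blue, bars with 95% exact intervals) and all protein-coding genes (grey), with both kinds of window at left and the promoter window alone at right. Every grey bar ends inside the interval of the blue bar beside it.

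Longer genes have more room for a summit, and ceh windows were somewhat long, with a median of 3637 bp against 3028 bp for all protein-coding genes. When all genes were split by window length into 3 groups of like number, at 2460 and 3918 bp, 27 ceh genes fell in the longest group. Of these, 9 had a replicate 1 peak (33.3%), against 32.2% of all genes of that group. Of the 23 in the middle group 1 had a peak (4.35%, against 15.6%), as did 1 of the 11 in the shortest (9.09%, against 11.6%). Pooled peaks were found for 12 of 27 in the longest group (44.4%, against 40.5%), 6 of 23 in the middle group (26.1%, against 21.1%) and 0 of 11 in the shortest (against 15.1%). On chromosome X, which holds 18 of the genes, 5 had a replicate 1 peak (27.8%, against 24.5% of all X genes). On the autosomes it was 6 of 43 (13.95%, against 19.05%). In the pooled list the shares were 8 of 18 on X (44.4%, against 30.98%) and 10 of 43 on autosomes (23.3%, against 24.7%). No test between chromosomes or gene sets was run.

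Per length of DNA, replicate 1 summits were more frequent in ceh promoter windows than in ceh gene bodies, though the intervals overlapped. Promoter windows held 9.14 summits per 100 kb (10 summits in 109.4 kb, 95% Poisson interval 4.38 to 16.8) and gene bodies 1.89 (4 summits in 211.6 kb, 0.515 to 4.84). Over all protein-coding genes the densities were 8.12 and 4.38 per 100 kb. In replicate 2 the ceh densities were 0.914 and 0.945 per 100 kb from 1 and 2 summits, against 1.75 and 1.86 over all genes. The pooled list gave 14.6 (8.36 to 23.8) and 5.20 (2.595 to 9.30), against 10.7 and 6.66. Every all-gene density lay inside the interval for the ceh genes. Promoter windows and gene bodies overlap, so a summit can count in each.

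**Figure D5:**
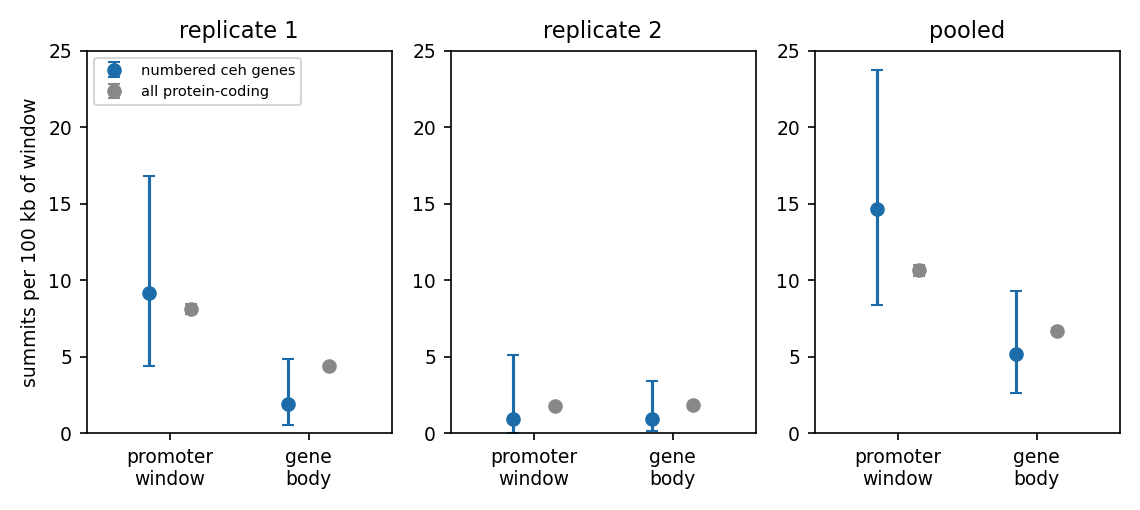
Peak summits per 100 kb in promoter windows and gene bodies of the ceh genes (blue) and of all protein-coding genes (grey), for each list, with 95% Poisson intervals of the summit count. In replicate 1 the blue points stand at 9.14 and 1.89, and their intervals contain the grey points at 8.12 and 4.38.

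Homeobox genes that carry other names were taken as the wider family. Of 37 such genes, 10 had a replicate 1 peak (27.03%), 6 a replicate 2 peak (16.2%) and 16 a pooled peak (43.2%), and unc-42 and zfh-2 had one in each replicate (5.41%). Over all genes the shares were 19.8%, 7.08%, 25.6% and 2.28%. The windows of the 37 were longer, with a median of 5902 bp. The strongest was in an intron of zfh-2, which encodes a zinc finger homeodomain protein, with a replicate 1 signal of 13.6 and rank 67. The Otx-type gene ttx-1, which specifies the AFD thermosensory neurons, had a peak 963 bp upstream (signal 6.04, rank 730). The Hox genes lin-39 and egl-5 had replicate 1 signals of 3.98 and 4.62. The neuronal gene unc-42 had replicate peaks with signals of 3.35 and 2.04, which did not overlap. At zfh-2, a weaker replicate 1 peak in a coding exon (signal 3.61, rank 1972) did overlap a replicate 2 peak (signal 2.23, rank 1082, q 0.706).

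At the edge of the rule, a few summits lay just inside or outside the windows. Just inside, the pooled summit at 999 bp upstream of ceh-57 and the 968 bp summit of ceh-21 counted. Just outside, a replicate 2 peak (signal 2.98, rank 238, q 0.402) had its summit 4 bp beyond the end of the ceh-90 window, and another (signal 3.29, rank 126, q 0.373) lay 1205 bp upstream of ceh-20. In replicate 1, a peak with a signal of 5.32 and rank 984 lay 192 bp beyond ceh-33, and one with 3.86 and rank 1749 lay 1307 bp upstream of ceh-99 but nearer to srh-70.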

How the data were processed

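The input was the relaxed ce11 peak lists of replicate 1, replicate 2 and the pooled alignments, and the authors' final list. Per the deposited file listing, each relaxed list was called against 2 control alignments. For the aligner, the caller and the thresholds, the names and versions were not given in the sources used here. The authors deposited for each peak a signal value, whose scaling between libraries is not stated, a −log10 q-value and a summit offset. Signal was used only to rank and describe peaks within a list. Ranks in lists of different length are not comparable. The ce10 lists were not used here, since the annotation and genome are ce11.

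Summits (start plus offset) were placed on the Ensembl release 115 annotation, with Python 3.11.15. Coordinates are 1-based. Intervals of shares are exact Clopper-Pearson 95% intervals, and those of densities are exact Poisson intervals (scipy 1.17.1). Shares by gene class, wider family, window length, chromosome and place in or between genes have none, save the limit for the 0 share of coding exons. Both kinds of interval cover counting only, and genes that share a summit are not independent. With 1 group of 2 replicates no test was run. Counts were set beside those of all protein-coding genes. The counting code was tested on planted summits. By rule, every ceh gene with a peak is named, and full values are given for genes with a peak in each replicate, a peak among the strongest 1000 of a replicate, or 1 of the 12 strongest ceh peaks of replicate 1. The members, gene lists and alternatives were chosen with earlier results of these data known. The distance of 44 to 107 bp, the limit of 110 bp and the summits at the edge of the windows were singled out after their values were seen. The alternatives were the promoter window or gene body alone, 500 or 2000 bp upstream, peak overlap by 1 bp, the strongest 1000 peaks, q of 0.05 or less, the nearest start, a left-out replicate, and 50 or 150 bp around summits. Symbols in a list but not in the annotation used are not analysed here.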

Additional observations from a re-analysis of the deposited data

How the results depend on the processing

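Of 50 alternative values for 7 results, 27 stayed within bounds and 23 did not. For counts of genes the bound was a ratio of 1.5 to the reported count, in either direction. For densities and the consensus share it was the reported interval. In replicate 1 the 11 ceh genes became 4 with the gene body alone (6.56%, all genes 10.7%) and 2 among the strongest 1000 peaks (3.28%, 4.13%). In replicate 2 the 3 genes became 1 with the promoter window alone (1.64%, all genes 3.11%), 5 with peak overlap (8.20%, 7.95%), 1 among the strongest 1000 (1.64%, 4.09%), 0 with q of 0.05 or less (0 of all genes) and 9 with the nearest start (14.8%, 7.76%). In the pooled list the 18 genes became 9 with the gene body alone (14.8%, all genes 15.5%), 2 among the strongest 1000 (3.28%, 4.20%) and 2 with q of 0.05 or less (3.28%, 5.47%). Without 1 replicate, that is in the lists of single replicates, there were 3 to 11. The 1 gene with a peak in each replicate became 0 with the promoter window alone, the gene body alone, 500 bp upstream, the strongest 1000 or q of 0.05 or less, where 0 to 1.801% of all genes counted. Replicate 1 summits per 100 kb, 4.43 in the whole window, were 9.14 in promoter windows, 1.89 in gene bodies and 0.739 for the strongest 1000. The replicate 2 density was 0 with q of 0.05 or less. The consensus share of 66.7% was 25% within 50 bp and 100% among the strongest 1000, which hold 2 ceh peaks. By construction, a narrower window or a part of the same list cannot give a higher count. The single-replicate lists are not parts of the pooled list, since ceh-1, ceh-37, ceh-45, ceh-23 and ceh-60 had replicate peaks and no pooled peak. The cause of their lower counts was not tested. In replicate 2 the 2 genes that peak overlap added, ceh-20 and ceh-90, had summits 205 and 4 bp beyond their windows. The 6 genes that the nearest start added had their summits outside the windows. For the 5 genes with peak overlap and the 9 with the nearest start, the cause was not tested. No paired analysis was possible because there is a single group. Depth is unknown, and with 61 genes and 12 replicate 1 peaks only large departures from the background would be visible.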

Other observations

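Peaks outside the windows were also counted. Of the 50 ceh genes without a replicate 1 peak, 18 had a summit within 5000 bp of the window (36%, 95% exact interval 22.9 to 50.8), against 37.2% of the 16021 protein-coding genes without a peak. In replicate 2 it was 14 of 58 (24.1%, 13.9 to 37.2), against 15.5% of 18571. The median gap over the ceh genes without a peak was 7682 bp for replicate 1, while replicate 2 had 18202.5 bp. The strongest such replicate 1 peak, with a signal of 7.49 and rank 442, lay 2177 bp beyond ceh-89 and 634 bp from a start of akt-2, a kinase gene of insulin signalling. A peak with a signal of 5.93 and rank 758 lay 496 bp beyond ceh-7 and had no nearer protein-coding start. A peak with a signal of 5.53 lay 4704 bp from the window of the engrailed-type gene ceh-16 and 147 bp from a start of dnj-10. In replicate 2, a peak with a signal of 3.33 and rank 113 lay 2680 bp upstream of the sine oculis-type gene ceh-32, and its q was 0.396.

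Giving each summit to the nearest protein-coding start changed which genes were counted. In replicate 1 it added ceh-5, ceh-7, ceh-18, ceh-32, ceh-33 and ceh-51 and removed ceh-21, so 10 of the 11 genes were shared between the assignments. In replicate 2 it added ceh-20, ceh-32, ceh-43, ceh-49, ceh-79 and ceh-90 and removed none. With this assignment ceh-32, which acts in head development, was the only ceh gene counted in each replicate. Its summits lay 4091 bp downstream of the start in replicate 1 (signal 2.27) and 2680 bp upstream in replicate 2.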
